A study of Mus musculus with 24 samples.

Results

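The livers of female Ppara knockout (KO) mice were set against those of female wild-type (WT) mice on 6 Affymetrix mouse arrays, chosen by their labels from the 24 of the series. KO liver RNA was on the arrays of pools 10, 11 and 12, and WT liver RNA on those of pools 7, 8 and 9. Each pool combined 4 SV129 females of about 10 to 12 weeks that were killed at zeitgeber time 14, and the labels name no treatment. The labels give neither the allele nor where the gene was deleted, and say nothing of fasting or diet. Because each array held a pool, the spread between arrays is a spread between pools and understates that between single animals. The 6 male liver arrays (KO pools 4 to 6 and WT pools 1 to 3, same strain, age and hour) entered the model for their estimate of the spread and for the comparison of the sexes.

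PPARα, the product of Ppara, is a receptor of the nucleus. Fatty acids and their derivatives are its ligands, and together with its partner RXR it raises the transcription of genes for fatty acid uptake, activation and oxidation in hepatocytes. Cholesterol synthesis in the same cells is governed by another factor, SREBP-2, which is released from the endoplasmic reticulum when sterols are low and binds sterol elements in the promoters of the pathway's enzymes. Sulfotransferases attach sulfate to steroids, bile acids and drugs, and transporters carry those conjugates, together with carnitine, acyl groups and sterols, across the membranes of the hepatocyte.

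Values are log2 intensities, with a median over the probe sets of single liver arrays between 2.43 and 2.49. Levels near or under that median have little room below them, so falls that end there are bounds. Ppara itself read 7.39, 7.28 and 7.60 in KO pools 10, 11 and 12, against 8.69, 8.24 and 8.48 in WT pools 7, 8 and 9. Every KO pool lay below every WT pool, but the transcript remained well above the array median, with a log2 difference of -1.05 (SE 0.13, limma adjusted p = 0.000975). The labels do not say where its probe set lies relative to the deletion. The 13 measured hepatocyte markers had a median level between 12.35 and 12.42 in KO pools and between 12.42 and 12.55 in WT pools, and none passed the threshold. The 18S ribosomal RNA control read 9.28 at its 3 prime probe set in KO pool 10, against 3.87 to 4.27 in the other 5 pools. Differences between the 3 prime and 5 prime probe sets of Actb ran from 1.35 to 1.66 in KO pools and from 1.11 to 1.47 in WT pools. The same differences for Gapdh and Pcx were lower in KO pool 12 (0.292 and 3.22) than in any other liver pool, with KO pools 10 and 11 at 0.717 and 0.501 for Gapdh and at 4.14 and 3.68 for Pcx. Their part in how pool 12 differs was not tested. In these tissue samples fewer cells of a type and less RNA per cell cannot be told apart.

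In all, 148 of 18193 genes differed between KO and WT (0.813% of genes, limma adjusted p under 0.05), 66 of them higher in KO (0.363%) and 82 lower (0.451%). The KO and WT pools did not overlap in any of the 148, as was the case for 10.4% of all genes, and 1250 genes had an unadjusted p under 0.05. The changes were mostly of middle size. Of the 148 genes, 107 differed by 0.5 to under 1.5 log2 units, 52 higher and 55 lower, while 29 differed by more (8 higher, 21 lower) and 12 by less. Of the 107 middle-sized genes 38 also passed in males with the same sign, as did 19 of the 29 larger ones. By direction, 49 of the 82 lower genes and 11 of the 66 higher genes also passed in males with the same sign. Whether past the threshold or not, 130 of the 148 had the same sign in males. The male comparison called 110 genes (0.605%), so the 60 shared genes were 40.5% of the female calls and 54.5% of the male ones. The count was 96, 90 and 88 without pools 7, 8 and 11, and it rested on the shared estimate of spread, since the 6 arrays fitted alone gave 55.

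Of the genes ranked 9 to 20 among those that rose in KO, 4 make cholesterol and the others belong to varied functions. Slc22a7, the organic anion transporter OAT2, read 6.79, 7.15 and 6.99 in KO pools 10, 11 and 12, against 5.59, 5.33 and 5.75 in WT pools 7, 8 and 9. It rose 2.68-fold (log2 difference 1.42, SE 0.18, limma adjusted p = 0.00129) with no overlap. Pdk4, a kinase that restrains pyruvate oxidation, read 3.83, 3.72 and 3.29 in KO pools against 2.40, 2.67 and 2.40 in WT pools, and rose by 1.12 from a WT level near the array median. Tcea3, a transcription elongation factor, read 5.70, 5.56 and 5.70 in KO pools and 4.85, 4.69 and 4.40 in WT pools, and rose 2.01-fold (limma adjusted p = 0.000875). These 3 genes kept their calls under every alternative tried.

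Other rises of that rank were lost under more of the alternatives. Itih5, of the inter-alpha-trypsin inhibitor family, rose by 1.35, and read 5.27 and 5.10 in KO pools 10 and 11 but 4.24 in KO pool 12, against 3.33, 3.52 and 3.71 in WT pools. Igfbp5, which binds insulin-like growth factors, rose by 1.16, with 4.08, 4.30 and 3.32 in KO pools and 2.61, 3.00 and 2.61 in WT pools. Ly6e, a membrane-anchored protein of the Ly6 family that interferon induces, rose by 1.06, with 9.50, 9.44 and 8.84 in KO pools and 8.40, 7.92 and 8.27 in WT pools. In each of these 3 genes KO pool 12 was the lowest KO pool. Dnase2a, the lysosomal DNase II, rose by 1.08, with KO pools between 7.31 and 7.39 and WT pools between 5.87 and 6.98, and Olfml1, an olfactomedin-like gene, rose by 0.97. Itih5 was not called without pool 7, 8, 9, 10 or 11 (log2 difference 1.15 to 1.44, adjusted p 0.0827 to 0.196), Igfbp5 without pool 7, 9, 10 or 11 (0.96 to 1.09, p 0.0608 to 0.0838), Dnase2a without pool 7, 8, 10, 11 or 12 (0.88 to 1.11, p 0.062 to 0.213), and Olfml1 without pool 8, 9, 10 or 11 (0.83 to 0.96, adjusted p 0.0674 to 0.0951). Without probe sets that may bind related transcripts, Igfbp5 differed by 0.06 and Ly6e by 0.19 (adjusted p = 0.993 and 0.826), and Dnase2a, whose 1 probe set is of that kind, had no value. The probe sets that then stood for Igfbp5 and Ly6e were dim. They averaged 2.61 and 3.12 in KO pools and 2.55 and 2.93 in WT pools, so these 2 differences carry little information. The called probe set of Ly6e averaged 9.26 in KO pools and 8.20 in WT pools.

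**Figure D1:**
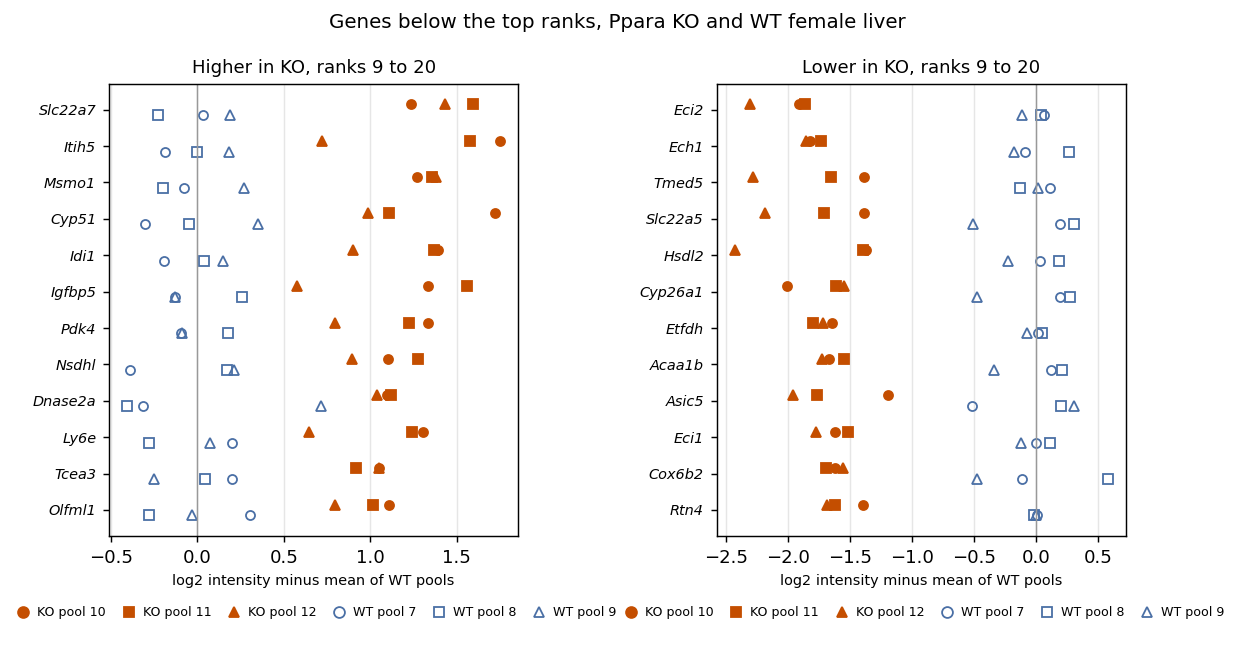
Log2 intensity minus the mean of the 3 WT pools (horizontal axis) for the genes ranked 9 to 20 by size among those that rose (left panel) and fell (right panel) in KO female liver. Filled symbols are KO pools and open symbols WT pools. KO pool 12, the triangle, was the lowest KO pool for most of these genes, among them Itih5, Igfbp5, Ly6e, Hsdl2 and Tmed5.

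Among the genes ranked 9 to 20 in the other direction, 6 act in fatty acid oxidation or its supply of carnitine. Etfdh, which passes electrons from acyl-CoA dehydrogenases to ubiquinone, read 6.92, 6.76 and 6.85 in KO pools 10, 11 and 12, against 8.58, 8.61 and 8.49 in WT pools 7, 8 and 9. The log2 difference was -1.72 (SE 0.10, limma adjusted p = 5.62e-07), with a gap between the groups far wider than either spread. Eci2 and Eci1, isomerases for the double bonds of unsaturated acyl-CoA, fell by 2.03 and 1.64, Ech1, a dienoyl-CoA isomerase, by 1.80, and Acaa1b, a peroxisomal thiolase, by 1.65. Slc22a5, which imports carnitine, fell by 1.76. Over the whole mitochondrial beta-oxidation list 14 of 18 measured genes fell (77.8%, against 0.451% of all genes) and none rose (median log2 difference -0.76, against -0.0015 over all genes), and in the peroxisomal list 7 of 19 fell (36.8%, median -0.63).

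The other 6 falls of that rank lay outside beta-oxidation. Tmed5, a p24 protein of traffic between endoplasmic reticulum and Golgi, read 6.21, 5.94 and 5.30 in KO pools and 7.70, 7.46 and 7.61 in WT pools, and fell by 1.77 (limma adjusted p = 0.000343). Hsdl2, a hydroxysteroid dehydrogenase-like protein of peroxisomes, read 5.56, 5.54 and 4.50 in KO pools and 6.97, 7.12 and 6.70 in WT pools, and fell by 1.73. Cyp26a1, which breaks down retinoic acid, read 3.07, 3.46 and 3.53 in KO pools and 5.27, 5.35 and 4.60 in WT pools, and fell by 1.72 (limma adjusted p = 0.00468). Groups were apart for all 3, and all 3 also passed in males. Rtn4, a reticulon that shapes the endoplasmic reticulum, fell by 1.57, with WT pools within 8.06 to 8.07 and KO pools between 6.38 and 6.68. Of its 5 probe sets, 2 fell (by 1.57 and 2.28) and the other 3 had differences from -0.07 to -0.03. Those 3 averaged 2.11 to 2.50 in WT pools, near or under the array median, which leaves little room for a fall. Cox6b2, an isoform of a cytochrome c oxidase subunit, fell by 1.62, with KO pools between 2.66 and 2.79, close to the array median, and Asic5, an ion channel, fell by 1.64. Hsdl2, Asic5, Cox6b2 and Slc22a5 missed the threshold when the 6 arrays were fitted alone (adjusted p = 0.0803, 0.0803, 0.0545 and 0.0563).

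Genes at early and late steps of cholesterol synthesis rose in KO. All 18 measured members had a positive difference, 8 rose (44.4% of the list, against 0.363% of all genes), none fell, and the median log2 difference was 0.90. Hmgcs1, the cytosolic synthase that makes HMG-CoA, read 10.66, 10.55 and 10.41 in KO pools 10, 11 and 12, against 8.87, 8.69 and 9.33 in WT pools 7, 8 and 9. It rose 2.98-fold (log2 difference 1.58, SE 0.21, limma adjusted p = 0.00167), and 4 of its 5 probe sets rose, by 1.33 to 1.58. Its remaining probe set, below the array median in every pool, differed by 0.13.

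RefSeq promoter windows (GRCm38.p6, 250 bases before the gene start and 50 after it) were searched on both strands for a sterol element spelled TCACNCCAC and for DR1, 2 copies of AGGTCA with 1 base between them, which PPARα binds with RXR. The sterol element occurred in 408 of 32851 windows (1.24%), and among the 15 sterol synthesis genes with a window in Hmgcs1 alone. Exact DR1 occurred in 13 windows (0.0396%) and in none of the 54 higher and 67 lower genes that had one. The Hmgcs1 window is shown for its match, in capitals, beside that of Idi1, a gene of the same pathway and chromosome without one. They lie on the plus strand at chr13:119690101-119690400 and chr13:8885356-8885655, and the match starts 137 bases before the start of Hmgcs1. A match describes the letters of the window and no binding was measured.
Hmgcs1: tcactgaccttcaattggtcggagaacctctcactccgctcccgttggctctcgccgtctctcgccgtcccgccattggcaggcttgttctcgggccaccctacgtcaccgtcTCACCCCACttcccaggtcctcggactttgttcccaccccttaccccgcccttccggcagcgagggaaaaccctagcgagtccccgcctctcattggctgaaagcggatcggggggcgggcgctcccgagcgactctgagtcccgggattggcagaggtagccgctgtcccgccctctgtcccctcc
Idi1: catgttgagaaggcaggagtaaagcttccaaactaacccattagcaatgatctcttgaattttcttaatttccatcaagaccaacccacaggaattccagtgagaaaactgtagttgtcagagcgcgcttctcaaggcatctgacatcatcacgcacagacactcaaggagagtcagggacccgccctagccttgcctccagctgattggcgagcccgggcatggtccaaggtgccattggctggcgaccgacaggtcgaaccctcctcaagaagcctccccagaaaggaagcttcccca

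Downstream of Hmgcs1 the rises came at several steps. Mvk, mevalonate kinase, read 6.08, 5.93 and 5.87 in KO pools 10, 11 and 12 and 4.91, 5.11 and 5.22 in WT pools 7, 8 and 9, and rose by 0.88 (SE 0.11, limma adjusted p = 0.000875). The other probe set of Mvk averaged 5.01 in KO pools and 4.54 in WT pools. Its KO and WT pools overlapped, and its difference of 0.46 did not pass (limma adjusted p = 0.847). Idi1, which isomerises isopentenyl diphosphate, read 8.65, 8.62 and 8.16 in KO pools and 7.07, 7.30 and 7.41 in WT pools, and rose by 1.22. Fdft1 and Sqle, which make squalene and its epoxide, rose by 0.94 and 0.95. The late steps that strip methyl groups from lanosterol rose too. Msmo1 read 9.66, 9.75 and 9.78 in KO pools and 8.32, 8.20 and 8.67 in WT pools and rose by 1.34 (SE 0.16, limma adjusted p = 0.00083), Cyp51 rose by 1.27 and Nsdhl by 1.09. In the probe sets that represent these genes, no KO pool reached a WT pool.

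The 10 members that did not pass had differences from 0.22 for Lbr to 0.95 for Mvd. Mvd, mevalonate diphosphate decarboxylase, read 4.89, 5.11 and 5.17 in KO pools and 3.75, 3.64 and 4.91 in WT pools, where WT pool 9 lay among the KO pools. WT pool 9 was the highest WT pool for every called member: Hmgcs1, Mvk, Idi1, Fdft1, Sqle, Cyp51, Msmo1 and Nsdhl. Pmvk, phosphomevalonate kinase, read 6.75 and 6.56 in KO pools 10 and 11 and 5.74 in KO pool 12, against 5.50, 5.50 and 5.29 in WT pools. Pmvk, Dhcr7 and Fdps missed the threshold with all pools (adjusted p = 0.0788, 0.0533 and 0.0621) and passed without pool 12 (0.000489, 0.0034 and 0.0462), which brought the list to 11 of 18. It was 5 without pool 7 or 11, and 4 with the 6 arrays fitted alone. Sqle was not called without pool 7, 8, 10 or 11 (0.77 to 0.93, adjusted p 0.118 to 0.187), Fdft1 not without pool 7, 8 or 11 (0.82 to 0.89, 0.0516 to 0.0579) and Nsdhl not without pool 7 or 11 (0.90 to 1.00, 0.0647 to 0.0861). Cyp51 missed it with the 6 arrays alone (adjusted p = 0.124), and 2 other probe sets of Cyp51 differed by 0.98 and 0.23 without passing. The latter probe set averaged 2.30 in KO pools and 2.07 in WT pools, under the array median.

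**Figure D2:**
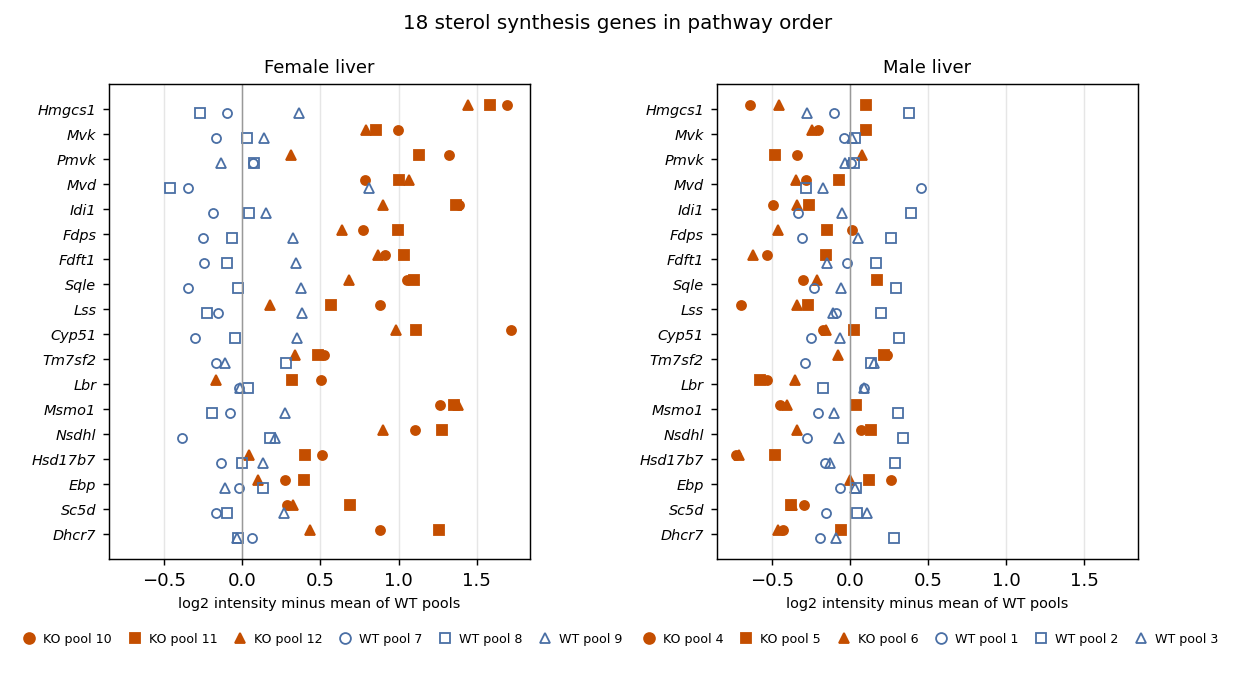
Log2 intensity minus the mean of the WT pools of the same sex (horizontal axis) for the 18 measured sterol synthesis genes, with female liver on the left and male liver on the right. Filled symbols are KO pools and open symbols WT pools, and the median KO minus WT difference over the list was 0.90 in females and -0.26 in males.

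In males the same 18 genes had a median log2 difference of -0.26 and none passed. The test of the difference between the sexes passed for 5 of them (Hmgcs1, Mvk, Idi1, Fdft1 and Msmo1), among 12 genes in all (0.0660%). Hmgcs1 read 8.02, 8.76 and 8.21 in male KO pools 4, 5 and 6 and 8.56, 9.04 and 8.39 in male WT pools 1, 2 and 3, which overlap. That total of 12 was 4 to 30 when single pools were left out, with 4 without pool 2 or 4 and 30 without pool 12.

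Of 15 measured genes of sterol sensing and uptake 2 rose (13.3%, against 0.363% of all genes) and none fell (median 0.11). Tmem97, an endoplasmic reticulum protein that binds the cholesterol transporter NPC1, rose by 0.80, with KO pools between 8.10 and 8.23 and WT pools between 7.22 and 7.49 (limma adjusted p = 0.000958). Rdh11, a retinol dehydrogenase on the list, rose by 0.95 and was not called without pool 7, 8, 10 or 11 (0.74 to 0.90, adjusted p 0.122 to 0.21). Srebf2, the gene of SREBP-2, read 5.20, 4.70 and 4.54 in KO pools and 4.65, 4.72 and 4.69 in WT pools (difference 0.12, adjusted p = 0.993, and -0.072 without pool 10). Insig1, which holds SREBP-2 back, differed by 0.57 (adjusted p = 0.274). Cyp7a1, the rate-limiting enzyme of bile acid synthesis, read 9.65 to 10.32 in KO pools and 9.56 to 10.15 in WT pools (difference 0.23, adjusted p = 0.987), whereas Cyp7b1, an oxysterol hydroxylase, rose 3.34-fold.

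Abcg8 and Abcg5, which together form the exporter of sterols into bile, fell. Abcg8 read 5.45, 5.25 and 4.26 in KO pools 10, 11 and 12, against 6.35, 6.19 and 6.37 in WT pools 7, 8 and 9, and fell by 1.32 (SE 0.26, limma adjusted p = 0.0325). Abcg5 read 6.72, 6.45 and 5.92 in KO pools and 7.18, 6.98 and 7.35 in WT pools, and fell by 0.81 (SE 0.16, limma adjusted p = 0.0344). KO pool 12 was the lowest for both, and without it the differences were -0.95 and -0.59, still past the threshold (adjusted p = 0.0204 and 0.0278). Abcg8 was not called without pool 7, 8, 9 or 11 (-1.45 to -1.28, adjusted p 0.0614 to 0.132), nor Abcg5 without the same pools (-0.90 to -0.72, adjusted p 0.0512 to 0.139). With the 6 arrays fitted alone both missed the threshold (limma adjusted p = 0.237 and 0.361), as did Abcg5 after median centring (0.0532). Abcg8 and Abcg5 are neighbours on chromosome 17. No other of the 11 measured genes of sterol export and esterification passed.

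Among the 13 measured Sult genes 2 rose (15.4%, against 0.363% of all genes), both by large steps. Sult5a1 read 7.08, 7.38 and 6.90 in KO pools 10, 11 and 12, against 4.66, 4.66 and 5.02 in WT pools 7, 8 and 9. It rose 5.08-fold (log2 difference 2.35, SE 0.13, limma adjusted p = 5.61e-07), the largest rise of the comparison. Sult1e1, the estrogen sulfotransferase, read 6.58, 6.57 and 7.06 in KO pools and 4.32, 4.41 and 5.20 in WT pools, and rose 4.27-fold (log2 difference 2.09, SE 0.31, limma adjusted p = 0.00391). For both genes the KO pools lay well clear of the WT pools. Both calls held under every alternative tried, with adjusted p up to 0.000967 for Sult5a1 and up to 0.0269 for Sult1e1.

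The other 11 measured Sult genes had differences from -0.12 for Sult1d1 to 0.34 for Sult1b1, and the 13 together had a median of 0.10. Sult3a1 read 11.49 to 11.87 in KO pools and 11.42 to 11.63 in WT pools, Sult2a2 10.61 to 10.98 and 10.34 to 10.75, and Sult1a1, which acts on phenols, 11.14 to 11.34 and 10.98 to 11.20. KO and WT pools overlapped for these abundant family members. Sult3a1 and Sult2a2 read 1.89 to 2.30 and 2.00 to 2.37 in the male pools of both genotypes, under the array median. Sult1c1, Sult2b1 and Sult6b1 lay under the array median in both groups, so their differences carry little information. Papss2, which makes the sulfate donor PAPS, read 8.95, 9.02 and 8.75 in KO pools and 8.52, 8.39 and 8.41 in WT pools, a difference of 0.46 that missed the threshold (adjusted p = 0.0512) and passed without pool 12 (0.54, adjusted p = 0.018). Probe sets of Papss2 that averaged 6.95 and 7.57 in WT pools differed by 0.24 and 0.23 without passing, and their KO and WT pools overlapped. Bpnt1, which clears the spent donor, differed by -0.46 (adjusted p = 0.162) and in its other probe set by -0.15. In males Sult5a1 rose too, to between 5.91 and 5.92 in KO pools against 4.75 to 5.04 in WT pools, and the female effect was larger by 1.35 (SE 0.18, adjusted p = 0.0191). For Sult1e1 the male difference was 0.87 (adjusted p = 0.423), with male WT pools under the array median, and the sexes were not shown to differ (adjusted p = 0.935).

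**Figure D3:**
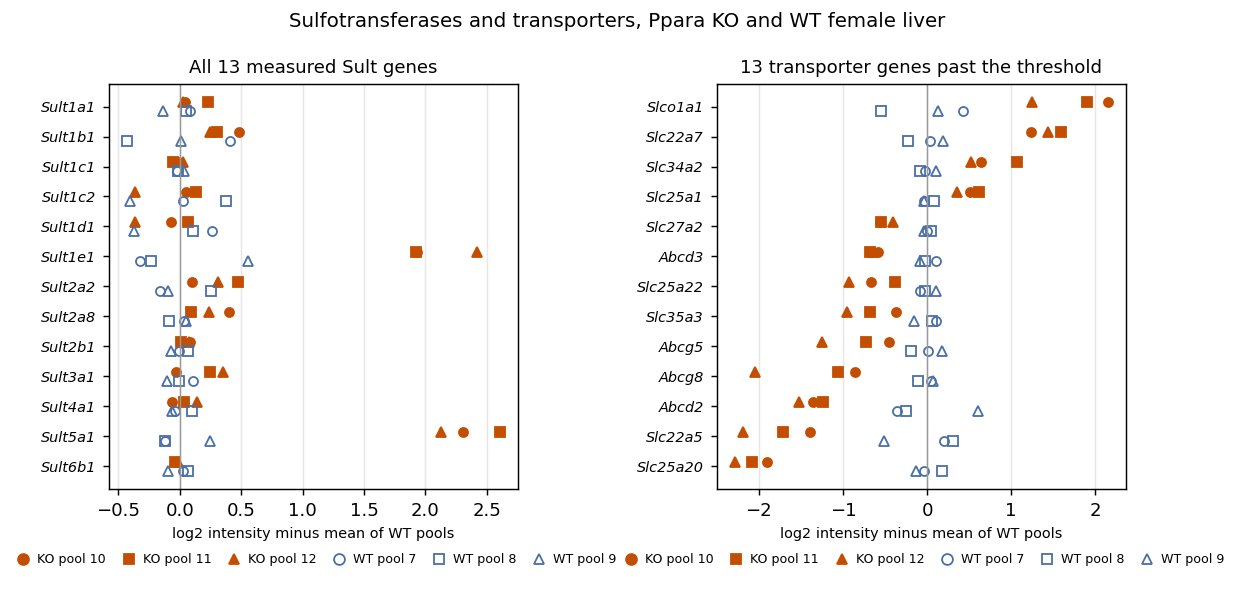
Log2 intensity minus the mean of the 3 WT pools (horizontal axis) for the 13 measured Sult genes (left panel) and the 13 transporter genes past the threshold (right panel) in female liver. Filled symbols are KO pools and open symbols WT pools, and Sult5a1 and Sult1e1, with differences of 2.35 and 2.09, stand clear of the other Sult genes.

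Few transporters changed. Of 418 measured genes in solute carrier, organic anion and ABC families 4 rose (0.957%, against 0.363% of all genes) and 9 fell (2.15%, against 0.451%), and the median difference was 0.0036. In 122 of the 418 both groups lay under the array median, which leaves no room for a fall. Among amino acid transporters 0 of 63 passed, and likewise 0 of 30 sugar transporters, 0 of 30 metal ion transporters and 0 of 13 monocarboxylate transporters, where 8, 4, 1 and 4 genes had KO and WT pools apart, against 10.4% of all genes.

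Slco1a1, an organic anion transporter of the sinusoidal membrane, read 8.07, 7.84 and 7.18 in KO pools 10, 11 and 12, against 6.35, 5.38 and 6.05 in WT pools 7, 8 and 9. It rose 3.41-fold (log2 difference 1.77, SE 0.23, limma adjusted p = 0.00155), and a second probe set rose by 1.96. In males, where Slco1a1 is known to be more abundant, it read 9.42 to 9.67 in KO pools and 9.34 to 9.55 in WT pools. Slc34a2, a phosphate transporter, rose by 0.75 to between 3.15 and 3.70 in KO pools, against 2.54 to 2.73 in WT pools. Slc25a1, which exports citrate from mitochondria for fatty acid and sterol synthesis, rose by 0.50, with KO pools between 7.88 and 8.15 and WT pools between 7.49 and 7.61. Slco1a1 missed the threshold with the 6 arrays alone (adjusted p = 0.0935), Slc34a2 also without pool 8 (0.70, adjusted p = 0.0544), and Slc25a1 also without pool 7 or 11 (0.43 to 0.47, adjusted p 0.0641 to 0.0678).

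The falls were mainly of carriers for acyl groups and carnitine. Slc25a20, which takes acylcarnitines into mitochondria, read 7.10, 6.92 and 6.72 in KO pools 10, 11 and 12, against 8.96, 9.18 and 8.87 in WT pools 7, 8 and 9. It fell by 2.09 (SE 0.11, limma adjusted p = 4.15e-07), and its other probe set fell by 2.61. Slc22a5, the carnitine importer, read 4.69, 4.37 and 3.90 in KO pools and 6.28, 6.39 and 5.58 in WT pools. The groups stood apart for both genes. Abcd2 and Abcd3, which carry acyl-CoA into peroxisomes, fell by 1.37 and 0.63, and Slc27a2, a very long-chain acyl-CoA synthetase named as a transporter, by 0.50. Abcd2 ended between 2.53 and 2.81 in KO pools, near the array median, so its fall is a bound. Slc25a22, a mitochondrial glutamate carrier, fell by 0.66 and Slc35a3, a Golgi carrier of UDP-N-acetylglucosamine, by 0.67.

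Some of these calls rested on single pools or probe sets. Slc25a22 was not called without pool 7, 8, 9 or 10 (-0.70 to -0.61, adjusted p 0.0568 to 0.0915) nor Slc35a3 without pool 7, 8 or 11 (-0.66 to -0.61, adjusted p 0.0928 to 0.125). Averaged over all their probe sets, Abcd3 differed by -0.28 and Slc35a3 by -0.33, neither past the threshold, and Abcd2 by -0.57. Those averages take in dim probe sets. The other probe set of Abcd3 averaged 2.19 in KO pools and 2.10 in WT pools, under the array median. Abcd3 lost its call under no other alternative. Further probe sets of Slc35a3 and Abcd2 averaged at most 3.28 in either group. The count of 13 transporters was 8 without pool 7 or 8, 3 with the 6 arrays alone and 22 with array weights. Without pool 12 it was 16, with 7 higher and 9 lower, and Slc2a1, Slco2a1 and Slc23a1 were added, the glucose carrier GLUT1, a prostaglandin carrier and a vitamin C carrier, at 0.81, 0.81 and 0.79. Cd36, a fatty acid receptor outside these families, read 3.23, 3.80 and 4.20 in KO pools and 4.83, 5.71 and 5.22 in WT pools and fell by 1.51, but not without pool 8, 9, 10 or 11 (-1.54 to -1.25, adjusted p 0.0656 to 0.104). The main carriers of bile acids and glucose did not pass. Slc10a1, which takes up bile acids, differed by 0.09, Abcb11, the bile salt export pump, by -0.06, and Slc2a2, GLUT2, by 0.04 (adjusted p from 0.955 to 0.993).

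Pool 12 differed from its sister pools more than any other liver pool did. Of the 17718 genes with pools 10 and 11 within 0.5 log2 units of each other, 89 stood at least 1 unit apart in pool 12, 66 lower and 23 higher. The same count was 19 for pool 10 and 4 for pool 11, and 1 to 19 over the other 11 liver pools. Over all genes pool 12 correlated at r = 0.986 with pool 10 and 0.990 with pool 11, which correlated at 0.995 with each other (a description across genes, which are not independent replicates). Of the 89 genes, 81 lay outside the range of all other 11 liver pools. Of the 89, 4 were among the genes called between KO and WT (4.49%, against 0.813% of all genes), Decr2, Plin5, Abcg8 and Hsdl2, and the difference of pool 12 enters those calls.

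The list of acute phase genes as a whole differed in pool 12 by a median of -0.15 (14 of 22 genes below pools 10 and 11). The medians of the brighter groups of all genes by signal level, described below, were -0.16 and -0.21. After a renewed quantile normalization the list differed by -0.13, against -0.04 and -0.02 in those groups. Lcn2, lipocalin 2, an iron-scavenging acute phase protein, read 5.99 in KO pool 12, against 7.90 and 7.99 in KO pools 10 and 11, and 6.77, 6.72 and 7.13 in WT pools. Saa2, serum amyloid A2, read 4.58 in KO pool 12, against 6.02 and 6.12, and WT pools spread from 4.76 to 7.36. Pool 12 was thus the lowest female pool for both genes. Decr2, a peroxisomal reductase, read 3.67 in KO pool 12, against 5.21 in KO pools 10 and 11 each, and Plin5, a lipid droplet coat protein, 3.42 against 4.93 and 4.81. Tfrc, the transferrin receptor, read 5.64, against 7.20 and 6.73. Slc35g1, the kinases Map3k5 and Sgk2, the lysine methyltransferase Etfbkmt and Antxr2, an anthrax toxin receptor, were lower by 1.32 to 1.44. Lcn2 and Antxr2 did not differ past the threshold with all pools (0.42 and 0.70, limma adjusted p = 0.982 and 0.532). Without pool 12 they were past it (1.07 and 1.15, limma adjusted p = 0.00139 and 0.000126). Both genes were named for a low pool 12 beside close pools 10 and 11, so leaving pool 12 out raises their difference by construction. Those p-values are therefore no separate test of a rise.

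Sema3f, a secreted guidance factor, had the largest excess in pool 12, with 8.78 there, against 7.10 and 7.49 in KO pools 10 and 11 and 7.32 to 7.86 in WT pools. Pik3cd, a leukocyte PI3-kinase subunit, read 6.08, against 4.83 and 4.87, and Fmo2, a flavin monooxygenase, 7.72, against 6.54 and 6.66. Slurp1, Vat1, Scrt2, Jsrp1, St14, Nol3 and Defa31 were higher by 1.10 to 1.22. Other probe sets bore these patterns out only in part. For the 54 of 89 genes that had them, 80 of 125 further probe sets differed the same way and 5 by 1 unit or more. None of the 4 further probe sets of Fmo2 and the 2 of Vat1 differed the same way. For Sema3f 2 of 2 and for Pik3cd 4 of 5 did. In the hearts of the same pool numbers, none of the 20 named genes differed by 1 unit in the same direction (range -0.67 to 0.62).

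The offset of pool 12 followed the signal level. Genes were split into 5 groups of equal size by their mean level in male liver, which holds none of the compared pools. From the dimmest group to the brightest, the median difference of pool 12 from the mean of pools 10 and 11 was 0.02, 0.06, 0.06, -0.16 and -0.21, and 81.6% of the brightest genes lay below. The standard deviation over the probe sets of the array was 1.66 in pool 12, against 1.69 to 1.74 in the other liver arrays. After a renewed quantile normalization the same medians were 0.01, 0.02, 0.02, -0.04 and -0.02. The count of genes apart was then 81, with 51 higher and 30 lower, 50 of them the same genes as before, and the 20 named genes kept their sign. The excess of lower genes thus depended on the normalization. The part of the signal-level offset in single genes was not tested.

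**Figure D4:**
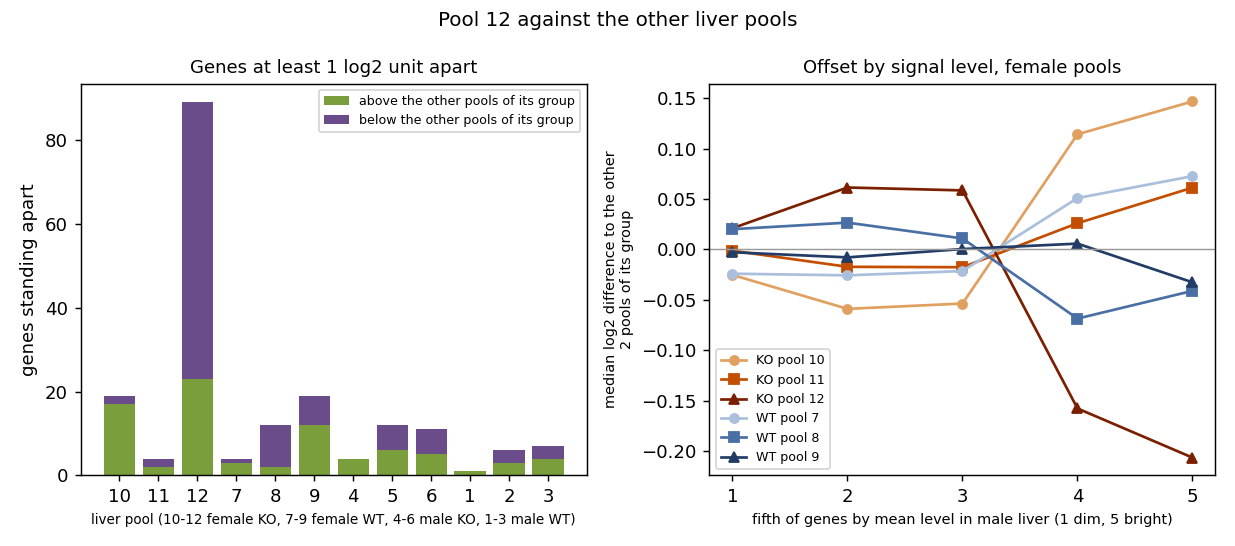
Left, the number of genes at least 1 log2 unit from the mean of the other 2 pools of the same group, where those lie within 0.5 units of each other, for each liver pool. Right, the median log2 difference of each female pool from the other 2 pools of its group over 5 groups of genes by level in male liver. Pool 12 has 89 genes apart and falls to -0.21 in the brightest group.

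Leaving pool 12 out changed which genes passed. The count was 203, with 127 higher and 76 lower, in place of 66 and 82. Of the 148 genes called with all pools 133 remained, 15 were lost and 70 were added, 65 of the added ones higher in KO. Leaving out pool 10, where the 18S control was high, gave 117 genes, 39 higher and 78 lower. All 29 genes with differences of 1.5 or more remained without pool 12, as did 98 of the 107 middle-sized ones.

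**Figure D5:**
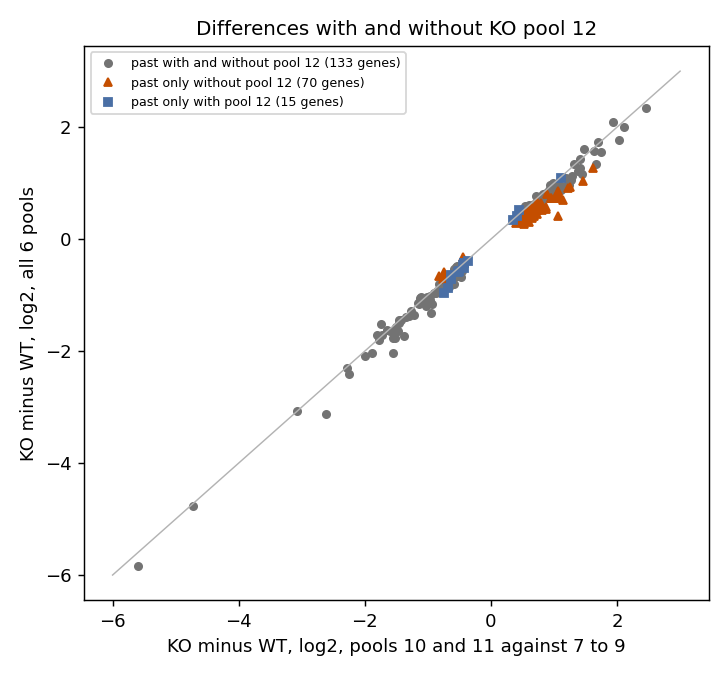
KO minus WT log2 difference from all 6 pools (vertical axis) against that without KO pool 12 (horizontal axis), 1 point per gene past the threshold in either. The line marks equal values, and most of the 70 genes past the threshold only without pool 12 (triangles) are positive and lie below it.

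Of 25 measured interferon response genes 2 rose with all pools (8%, against 0.363% of all genes; median 0.27) and 6 without pool 12 (median 0.44), when 0.698% of all genes were called higher, while none passed without pool 10. In pool 12 the list differed from pools 10 and 11 with a median difference of -0.22 (22 of 25 genes below), against -0.21 in the brightest group of all genes. After a renewed quantile normalization these medians were -0.13 and -0.02. Psmb8, an immunoproteasome subunit, read 5.39, 5.38 and 4.79 in KO pools 10, 11 and 12, against 4.44, 4.35 and 4.54 in WT pools 7, 8 and 9, and rose by 0.74 (limma adjusted p = 0.0275). Ifi27l2a, another interferon target, rose by 0.44. Neither was called without pool 7, 8, 9, 10 or 11, with Psmb8 at 0.64 to 0.79 (adjusted p 0.0591 to 0.136) and Ifi27l2a at 0.36 to 0.48 (adjusted p 0.0881 to 0.154), while Ifih1, a sensor of viral RNA, differed by 0.82 with all pools and by 1.06 without pool 12 (adjusted p = 0.163 and 0.0167). Of 13 Kupffer cell and macrophage markers 11 had a positive difference (median 0.32), none passed, and their summed linear intensity ran from 627 to 849 in KO pools and from 457 to 874 in WT pools. Among the KO pools 12 had the lowest median of these markers, 4.71 against 5.55 and 5.34. Their part in the interferon result was not tested.

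Probe sets outside the table of single genes added a few changes. Over 45037 probe sets 216 passed (0.480%), 90 higher and 126 lower, and 26 of these had several annotated genes or none. Probe set 1424853_s_at, annotated to both Cyp4a31 and Cyp4a10 and so to neither alone, read 5.13, 3.95 and 2.18 in KO pools 10, 11 and 12, against 11.15, 11.28 and 10.16 in WT pools 7, 8 and 9. It fell by 7.11 (limma adjusted p = 4.79e-05), more than Cyp4a14, whose fall of 5.84 was the largest among single genes. Its KO pools differed widely among themselves, with pool 12 under the array median. A probe set shared by Acaa1b and Acaa1a fell by 1.47, and 1 shared by the apolipoprotein L genes Apol9a and Apol9b rose by 1.97. Those without an annotated gene, named by their IDs only, included 1427213_at and 1431833_a_at, which fell by 1.54 and 1.49, and 1424245_at and 1428671_at, which rose by 1.87 and 0.77. A probe set shared by Hmgn2 and 3 predicted genes rose by 0.75.

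Further probe sets of the same genes mostly ran the same way. For 80 of the 148 genes there were 137 other single-gene probe sets, of which 120 had the same sign, 44 passed in the same direction and none passed in the opposite one. Another 13 genes passed only through a probe set that did not represent them, and those named here were chosen after their values were seen. Among them Scd1, a stearoyl-CoA desaturase, averaged 4.81 in KO pools and 6.41 in WT pools in that probe set and differed by -0.90 in the brighter one (adjusted p = 0.27). Txnip, which binds thioredoxin, fell by 1.67 against -1.22 (adjusted p = 0.057), and Cxcl14, a chemokine, rose by 1.51 against 0.32 (adjusted p = 0.553).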

How the data were processed

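Per the submitters' processing notes, the authors normalized the arrays with RMA; deposited are log2 intensities. Software version and genome build are not given in the sources used here. Of 45101 probe sets 64 were controls, and 34945 had 1 annotated gene. For each of 18193 genes the brightest single-gene probe set, by its mean over 24 arrays, was used. A limma model (version 3.58.1, R 4.3.3; lmFit, eBayes) with 4 group means was fitted to the 12 liver arrays (two-sided, Benjamini-Hochberg over all genes, threshold 0.05). In data simulated with each gene's residual spread, log2 shifts of 0.5, 1 and 2 were recovered in 52.2%, 92.5% and 100% of 67 genes each. Of the 171 calls there, 7 were unshifted genes. The simulated noise was independent between genes and arrays and held no offset of a single array such as that of pool 12. Recovery and false calls in the real arrays may therefore differ. The number of arrays limits the precision.

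Members and gene lists were chosen with earlier results of these data known. Named were ranks 9 to 20 each way (clone symbols passed over), called members of the sterol, sulfotransferase and transporter lists, up to 4 members of other lists, a set of well-known genes, the 10 largest differences of pool 12 each way among genes above the median level, and 4 probe sets each way without a single gene. Further sulfotransferase genes below the threshold, Ifih1 and Insig1 were named after their values were seen. Alternatives were the compared arrays alone, a trended robust variance, array weights, quantile normalization, median centring, a level filter, other choices of probe sets and each pool left out. Some listed genes are not reported here.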

Additional observations from a re-analysis of the deposited data

Results flagged for a closer look

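The effect of the KO differed between the sexes in 12 genes by a test of the difference itself (limma interaction, females minus males, adjusted p under 0.05). The female effect was more negative for Vnn1 (-3.52), Rad51b (-2.06) and Retsat (-1.94). It was more positive for Myom2 (2.24), Cyp7b1 (2.01), Hmgcs1 (1.91), Msmo1 (1.61), Idi1 (1.58), Fdft1 (1.38), Sult5a1 (1.35), Dntt (1.26) and Mvk (1.00). Some of these rest on groups near the array median, where values are bounds. Myom2 averaged 2.35 in female KO pools and 2.57 in female WT pools, so its value comes from the males, with 2.97 in KO pools and 5.43 in WT pools. Vnn1 averaged 2.34 in female KO pools and 7.11 in female WT pools, and 2.27 in male KO pools and 3.51 in male WT pools. Without pool 12 there were 30 such genes, and without pool 2 or 4 there were 4.

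The 18S ribosomal RNA control, which enters no gene comparison, read 9.28 at its 3 prime probe set in female KO pool 10, against 3.99 and 3.93 in KO pools 11 and 12 and at most 4.27 in the WT pools. Male KO pool 6 read 6.79.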

How the results depend on the processing

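No paired analysis was possible because KO and WT liver pools share no pool number. For the 148 genes, the arrays compared alone gave 55 and array weights 326, and leaving out single pools gave 88 to 203. For the 216 probe sets these were 79, 358 and 138 to 280. The 12 genes differing between the sexes became 26 with array weights, 7 after quantile normalization, 6 with the mean of all probe sets and 4 to 30 without single pools. The 8 sterol synthesis genes became 4 with the arrays alone and 5 to 11 without single pools, the 13 transporters 3, 22 with array weights and 8 to 16, and the 2 sulfotransferase list genes stayed at 2 to 3. The 89 genes apart in pool 12 became 527 at a difference of 0.7 and 2 at 1.5, with 25.8% higher, against 63.0% higher after quantile normalization. Without pool 12, 62.6% of called genes were higher, without pool 8 or 10 33.3% and without pool 11 33%, with the arrays alone 34.5%, and with array weights 57.4%, against 44.6%. Of 56 named genes past the threshold 29 kept their call under all alternatives, and the others lost it in 91 of the fits. The sign turned once, for Srebf2 without pool 10 (-0.072, within -0.072 to 0.26 over single pools left out). The cause of these shifts was not tested. The array weight of pool 12 was 0.358 and that of pool 11 was 3.38. Levels near the array median limit how far a fall can be measured.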
